A study of Mus musculus with 16 samples.

Results

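The genes described here are 10 genes of calcium release and reuptake in skeletal muscle: Ryr1, Cacna1s, Atp2a1, Atp2a2, Casq1, Casq2, Sln, Pln, Mrln and Pvalb. They were chosen by symbol, each matched 1 row of a table of 17230 genes, and all 10 passed the filter on low counts that left 17212 genes for testing. Total RNA of the mouse plantaris, a plantar flexor of the ankle, was sequenced in mice of 9 to 12 weeks of age. Mice of Wild Type genotype (WT) or TRIM28 mKO (KO, also given as Trim28 Knockout) underwent either a Sham operation or myotenectomy (MTE), a surgery that loads the plantaris mechanically. The files held 3 libraries of KO Sham and 4 of each other group, that is WT Sham, WT MTE and KO MTE. The labels name neither the promoter or cell type behind the deletion nor the time after surgery. They do not state that each library is a separate mouse, and p-values therefore measure only the spread between these samples, which may be technical.

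In a muscle fibre, depolarisation of the transverse tubule moves the voltage sensor of the L-type calcium channel, which opens the ryanodine receptor of the sarcoplasmic reticulum. Calcium stored there on calsequestrin flows into the cytosol and starts contraction. SERCA pumps return it to the store and so relax the fibre, small membrane peptides bind the pump and lower its activity, and parvalbumin binds cytosolic calcium in fast fibres.

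Library totals ran from 21.1 M to 69.2 M counts (M for 1000000). Trim28, the targeted gene, lay at 27.8 to 49.0 CPM (counts per 1000000 counts) in WT Sham and 5.39 to 12.7 in KO Sham, and at 35.3 to 60.9 in WT MTE and 18.0 to 30.3 in KO MTE, with no overlap between genotypes in either surgery. The log2 fold change of Trim28 between genotypes was -1.84 in Sham and -0.99 in MTE. The latter did not pass the edgeR test described below but passed with DESeq2 and limma voom. Trim28 was called higher with overload in KO (1.30). A pair of libraries stood apart. WT Sham 1 held 3349 CPM summed over 10 macrophage markers, while WT Sham 2 to 4 held 256 to 362, and its mitochondrially encoded share was 6.95% against 13.3% to 14.4%. KO Sham column 3, the shallowest library, had a mitochondrially encoded share of 20.5%, against 11.3% and 12.2% in the other KO Sham libraries. Member calls that change without these libraries are given both ways. The plantaris label was checked against fibre markers: fast fibre genes summed to 34741 to 94027 CPM and slow fibre genes to 572 to 2123 CPM.

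Overload lowered Atp2a1, Mrln and Pvalb and raised Casq2 in both genotypes, while the genotypes differed in Casq2, in Mrln and, over both surgeries, in Sln. A member was called at an adjusted p under 0.05 from edgeR's quasi-likelihood test, adjusted over all genes tested. In WT, MTE raised 2 members (Casq2 and Sln) and lowered 6 (Ryr1, Cacna1s, Atp2a1, Casq1, Mrln and Pvalb). All genes were called at 25.3% in that comparison, 14.1% higher and 11.2% lower. In KO, MTE raised 1 member (Casq2) and lowered 3 (Atp2a1, Mrln and Pvalb), beside a background of 25.9% (13.2% higher, 12.7% lower). The median log2 fold change of the members was -0.58 in WT and -0.20 in KO, and that of all genes was 0.04 in both. Between genotypes, Casq2 was higher and Mrln lower in KO within Sham, where 0.511% of all genes were called (0.331% higher, 0.18% lower), and within MTE, where 1.47% were called (1.21% higher, 0.256% lower). Over both surgeries together Casq2 and Sln were higher and Mrln lower in KO, beside 3.37% of all genes (2.36% higher, 1.01% lower). The difference between the overload responses of KO and WT passed the edgeR test for 0 members, 0 of the 10 had an unadjusted p under 0.05, and DESeq2 and limma voom each called 0. That test called 0% of all genes, so the differing counts in WT and KO are not shown to be different responses. The comparisons that share WT Sham or KO Sham libraries are not independent of one another.

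**Figure D1:**
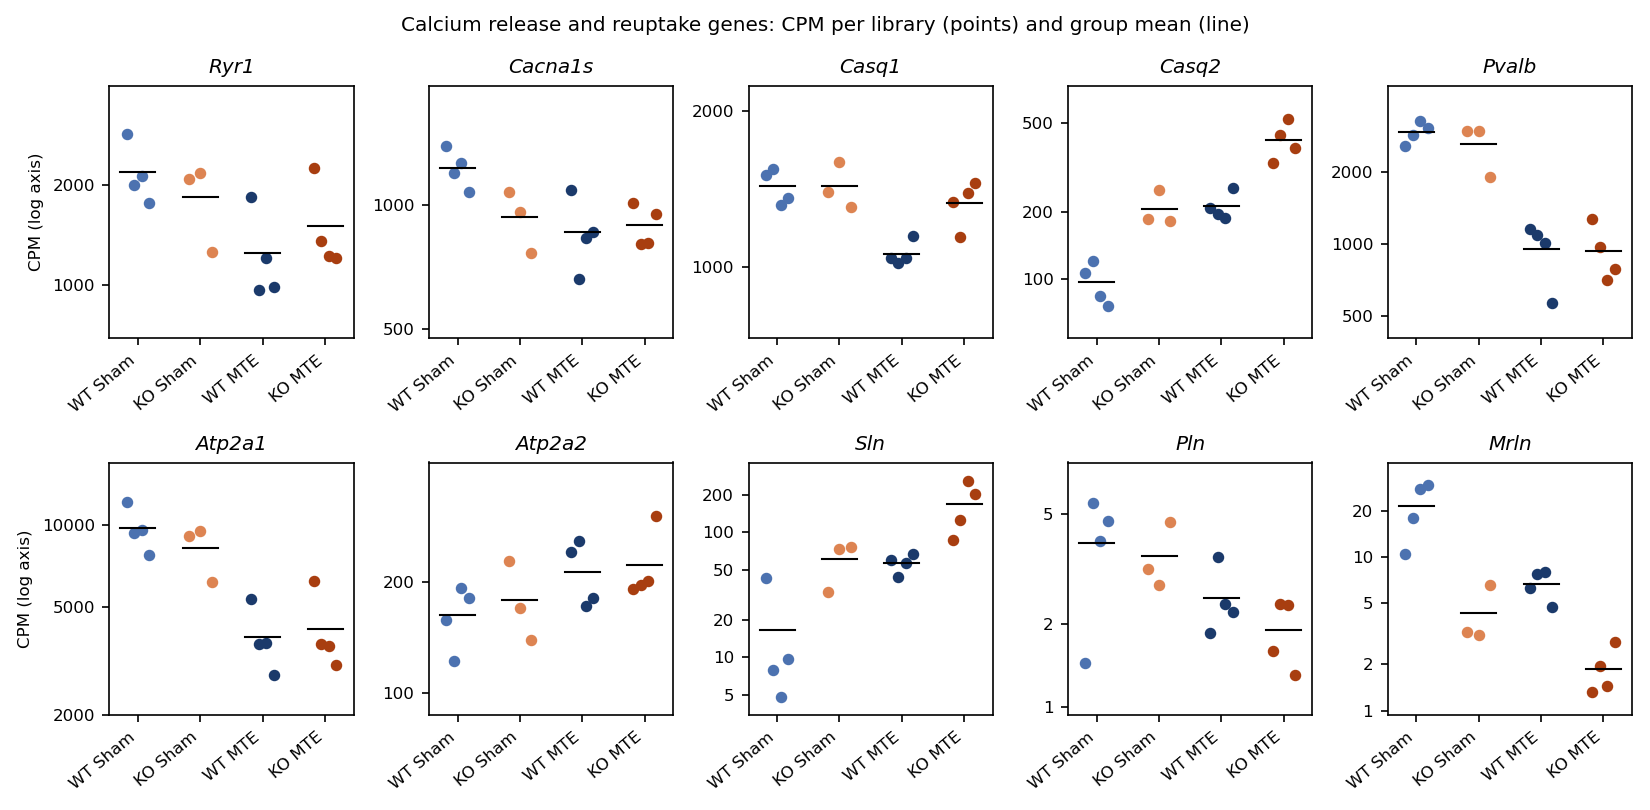
CPM (log axis, a different range in each panel) of the 10 members in 15 libraries, by group. Points are libraries and lines group means; Casq2 is highest and Mrln lowest in KO MTE, and Pvalb and Atp2a1 are lower in MTE than in Sham in both genotypes.

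**Figure D2:**
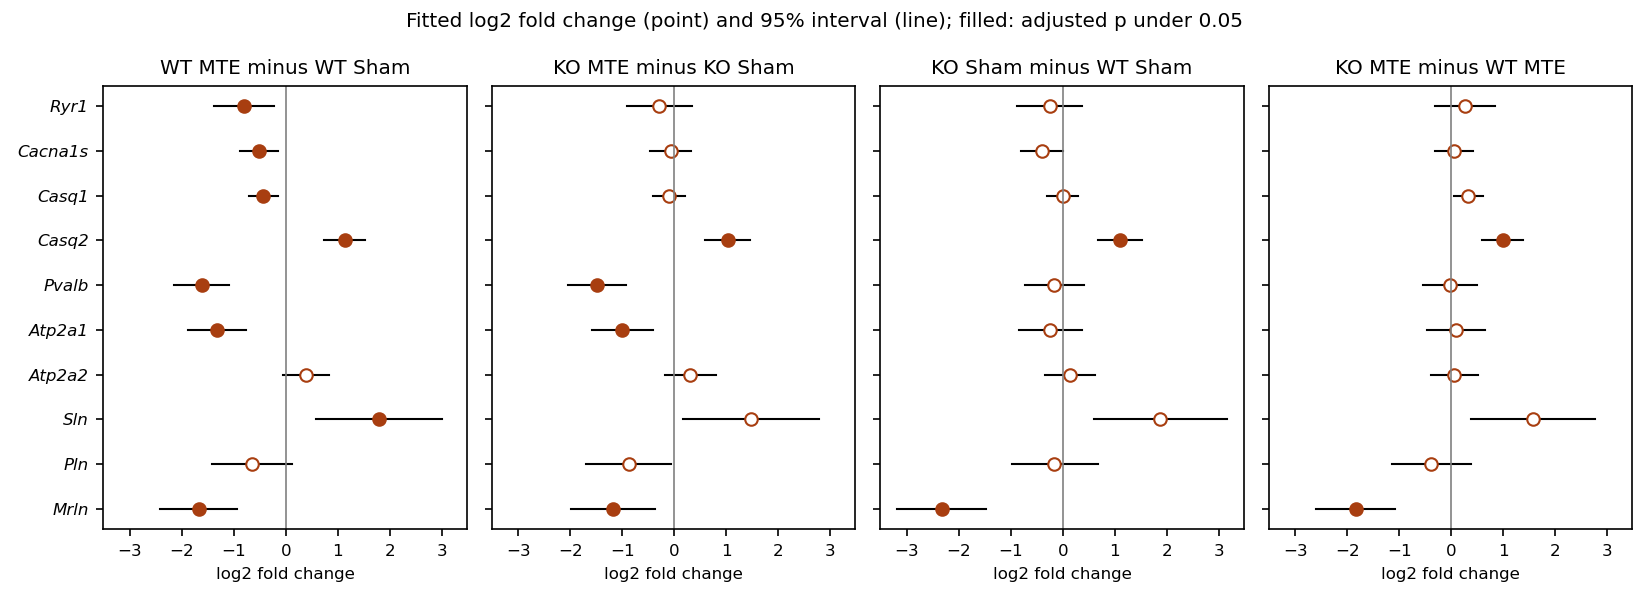
Fitted log2 fold change (points) with its 95% interval (lines) for each member in the 4 pairwise comparisons. Filled points passed the test: 8 members in WT overload, 4 in KO overload, and Casq2 and Mrln in both comparisons of genotype.

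The 3 members that inhibit or modulate the pump are single-span membrane peptides, and their whole reading frames are short enough to show. Sarcolipin (Sln) is known to uncouple the pump's ATP use from calcium transport, phospholamban (Pln) is the inhibitor of the heart and slow muscle, and myoregulin (Mrln) was described in mouse as the peptide of fast and slow skeletal muscle. The coding sequences below are from the GENCODE M21 transcripts on GRCm38, 5′ to 3′, with the start and stop codons in capitals. Each lies in a single exon, of 31 codons for Sln (chr9:53853473-53853568, plus strand), 52 for Pln (chr10:53343864-53344022, plus strand) and 46 for Mrln (chr10:70219496-70219636, plus strand), the stop codon not counted.
Sln: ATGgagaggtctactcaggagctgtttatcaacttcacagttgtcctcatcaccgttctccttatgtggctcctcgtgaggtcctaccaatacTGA
Pln: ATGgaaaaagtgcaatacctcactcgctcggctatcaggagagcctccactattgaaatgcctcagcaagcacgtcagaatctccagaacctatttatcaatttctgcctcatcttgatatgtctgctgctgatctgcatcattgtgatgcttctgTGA
Mrln: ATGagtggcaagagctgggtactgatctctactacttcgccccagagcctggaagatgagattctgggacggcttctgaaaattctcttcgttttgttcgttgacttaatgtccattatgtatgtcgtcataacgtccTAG

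Mrln fell with overload and was lower in KO. In Sham, its CPM were 10.4, 18.0, 27.7 and 29.6 in WT libraries 1 to 4 and 3.28, 3.11 and 6.55 in KO columns 1 to 3. In MTE, its CPM were 6.27, 7.72, 8.04 and 4.76 in WT libraries 1 to 4 and 1.32, 1.95, 1.44 and 2.81 in KO libraries 1 to 4. Every KO library was below every WT library of the same surgery, and every MTE library was below every Sham library of the same genotype. Over the members, the libraries of the groups overlapped for 8 in the Sham comparison of genotypes, 7 in MTE, 4 in WT overload and 5 in KO overload. Of all genes, 7.48%, 12.3%, 24.7% and 36.2% did not overlap in these 4 comparisons, in that order.

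In KO, Mrln was 5.04-fold lower within Sham (log2 fold change -2.33, SE 0.40, adjusted p = 0.0157) and 3.57-fold lower within MTE (-1.84, SE 0.36, adjusted p = 0.0176). Over both surgeries the difference was 4.24-fold (log2 fold change -2.08, SE 0.27, adjusted p = 5.29e-04). Overload lowered Mrln 3.19-fold in WT (-1.67, SE 0.35, adjusted p = 0.00321) and 2.26-fold in KO (-1.18, SE 0.38, adjusted p = 0.0343). The genotype difference over both surgeries held when any 1 library was left out, with a log2 fold change of -2.29 to -1.99. Within Sham it did not pass without WT Sham 3 (adjusted p = 0.0507), KO Sham column 1 (0.11) or KO Sham column 2 (0.115). Within MTE it did not pass without WT MTE 2 (0.0581), WT MTE 3 (0.0679), KO MTE 2 (0.0679) or KO MTE 3 (0.0612). The KO overload call was lost without KO Sham column 3 (log2 fold change -0.77, adjusted p = 0.201), KO MTE 1 (0.0837), KO MTE 2 (0.0691) or KO MTE 3 (0.0741), and with limma voom (0.0953).

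Sln moved the other way. In Sham, its CPM were 43.3, 7.93, 4.82 and 9.57 in WT libraries 1 to 4 and 33.2, 73.9 and 75.8 in KO columns 1 to 3. In MTE, they were 60.2, 43.6, 56.9 and 67.2 in WT and 87.5, 124.8, 259 and 205 in KO, each for libraries 1 to 4. WT Sham 1 was above the other WT Sham libraries and inside the range of KO Sham, so the genotypes overlapped in Sham. In MTE every KO library was above every WT library, and in both genotypes every MTE library was above every Sham library.

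Overload raised Sln 3.46-fold in WT (log2 fold change 1.79, SE 0.57, adjusted p = 0.0316). In KO its log2 fold change was 1.47 (SE 0.62, adjusted p = 0.0887), which passed with DESeq2 (0.0409), limma voom (0.0461) and a fit of the KO groups alone (0.0367). A fit of the WT groups alone lost the WT call (1.76, SE 0.64, adjusted p = 0.0837). The difference of genotype was 3.31-fold over both surgeries (log2 fold change 1.73, SE 0.41, adjusted p = 0.0312), 1.88 in log2 within Sham (SE 0.60, adjusted p = 0.257) and 1.57 within MTE (SE 0.56, adjusted p = 0.225). The difference within MTE passed when only the MTE groups were fitted (1.62, SE 0.31, adjusted p = 0.0223). Without WT Sham 1, the library with the macrophage markers, the WT overload value was 2.89 (adjusted p = 1.18e-04) and the genotype difference in Sham 3.01 (adjusted p = 0.00478). Without both WT Sham 1 and KO Sham column 3, KO overload (1.64, adjusted p = 0.0206) and the genotype difference within MTE (1.59, adjusted p = 0.0243) also passed. The WT overload call was lost without any 1 of the other WT Sham libraries or of WT MTE 1, 3 and 4 (adjusted p up to 0.093), and the call over both surgeries was lost in 10 of 15 such omissions (up to 0.0795). Those 10 left out WT Sham 2 or 4, KO Sham column 2 or 3, any WT MTE library, or KO MTE 3 or 4.

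Pln was scarce, at 1.31 to 5.48 CPM in all libraries. Its log2 fold change with overload was -0.65 in WT (SE 0.36, adjusted p = 0.2) and -0.88 in KO (SE 0.38, adjusted p = 0.101), and its groups overlapped in WT and did not overlap in KO: the highest KO MTE library stood at 2.35 and the lowest KO Sham library at 2.76 CPM. Without WT Sham 1, whose 1.44 CPM was the lowest of its group, the WT value was -0.97 (adjusted p = 0.0123). The genotype differences were -0.16 within Sham and -0.38 within MTE, neither of which passed.

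The calsequestrins bind calcium inside the store. Casq1 is the form of fast fibres, and Casq2 is the form of the heart, also present in slow fibres. In Sham, Casq2 CPM were 106, 120.4, 83.8 and 76.2 in WT libraries 1 to 4 and 187, 252 and 182 in KO columns 1 to 3. In MTE, they were 209, 196, 187 and 257 in WT and 332, 443, 522 and 387 in KO, again in order. No pair of groups overlapped in any of the 4 comparisons, and the KO Sham and WT MTE means were close, at 207 ± 39.0 and 212 ± 31.2 CPM (SD, n = 3 and 4).

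Overload raised Casq2 2.19-fold in WT (log2 fold change 1.13, SE 0.19, adjusted p = 7.21e-04) and 2.04-fold in KO (1.03, SE 0.20, adjusted p = 0.00365). In KO it was 2.14-fold higher within Sham (1.10, SE 0.20, adjusted p = 0.0231) and 1.98-fold higher within MTE (0.99, SE 0.19, adjusted p = 0.0152). Over both surgeries the difference was 2.06-fold (1.04, SE 0.14, adjusted p = 6e-04). The overload calls and the genotype call over both surgeries held when any 1 library was left out, the latter at a log2 fold change of 0.96 to 1.10. Within Sham the call was lost without WT Sham 3 (adjusted p = 0.0897), WT Sham 4 (0.0812), KO Sham column 1 (0.058) or KO Sham column 2 (0.123), and within MTE without WT MTE 1 (0.0511), WT MTE 2 (0.0581), WT MTE 3 (0.072) or KO MTE 2 (0.0615). The calls of Casq2 and Mrln within Sham were also lost when only the Sham groups were fitted (0.211 and 0.208), with log2 fold changes of 1.08 and -2.34.

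Casq1 fell 1.35-fold with overload in WT (log2 fold change -0.43, SE 0.13, adjusted p = 0.0258). Its WT values were 1509, 1548, 1317 and 1362 CPM with Sham surgery and 1041, 1020, 1040 and 1148 CPM with MTE. The WT groups did not overlap. In KO the ranges were 1308 to 1597 CPM in Sham and 1145 to 1454 CPM in MTE, which overlapped, with a log2 fold change of -0.11 (SE 0.14, adjusted p = 0.591). The difference between these responses was 0.33 (95% interval -0.09 to 0.74, adjusted p = 0.989). The WT call was lost without WT Sham 2 (0.0776), WT MTE 1 (0.0623), WT MTE 2 (0.0647) or WT MTE 3 (0.0654).

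The start regions of Casq2 and Mrln are shown because these members differed between genotypes in opposite directions. Each sequence is the 250 bases before the RefSeq start on GRCm38.p6, 5′ to 3′ on the gene's strand, at chr3:102086165-102086414 for Casq2 and chr10:70204414-70204663 for Mrln, both on the plus strand. Both strands were searched for the E-box CAGCTG, which myogenic factors bind, for the variant E-box CAGGTG and for the MEF2 site, and matches are in capitals; no match overlapped another. The CAGGTG E-box appears as its reverse complement in Mrln.
Casq2: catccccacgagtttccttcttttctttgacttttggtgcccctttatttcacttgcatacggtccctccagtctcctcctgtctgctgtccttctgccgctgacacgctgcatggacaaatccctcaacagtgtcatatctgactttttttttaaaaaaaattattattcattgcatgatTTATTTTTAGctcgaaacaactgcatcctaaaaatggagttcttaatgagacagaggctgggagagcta
Mrln: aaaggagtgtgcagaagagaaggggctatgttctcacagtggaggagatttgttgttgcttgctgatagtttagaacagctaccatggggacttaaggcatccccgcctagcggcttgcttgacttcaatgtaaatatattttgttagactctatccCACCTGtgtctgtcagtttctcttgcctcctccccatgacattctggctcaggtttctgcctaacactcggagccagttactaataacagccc

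The Casq2 region held a MEF2 site that began 69 bases before the start, and the Mrln region held a CAGGTG E-box that began 93 bases before it. Of 32817 promoters of the same length, 2.92% held a MEF2 site, 17.2% a CAGGTG and 13% a CAGCTG. The table held 8 of the 10 members, of which 2 had a MEF2 site (Casq2 and Pvalb). The CAGCTG box was found in 3 of them, namely in Cacna1s, Atp2a1 and Casq1. The variant box was found in 2 of them, Casq1 and Mrln. These are matches of letters, and no binding was measured.

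The SERCA pumps changed unequally. Atp2a1 encodes SERCA1, the pump of fast fibres, and Atp2a2 encodes SERCA2, of which one form serves the heart and slow fibres. In WT, Atp2a1 CPM were 12098, 9341, 9544 and 7766 in Sham 1 to 4 and 5326, 3652, 3679 and 2797 in MTE 1 to 4. In KO, they were 9084, 9455 and 6147 in Sham columns 1 to 3 and 6222, 3635, 3587 and 3056 in MTE 1 to 4. The WT groups did not overlap, whereas KO MTE 1 was above KO Sham column 3.

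Overload lowered Atp2a1 2.51-fold in WT (log2 fold change -1.33, SE 0.27, adjusted p = 0.00253) and 1.99-fold in KO (95% interval on the log2 scale -1.59 to -0.40, adjusted p = 0.0196). The KO call was lost without KO Sham column 1 (adjusted p = 0.0601), KO MTE 2 (0.0547) or KO MTE 4 (0.057). The genotype differences of Atp2a1, -0.24 within Sham and 0.09 within MTE, did not pass, with intervals of -0.84 to 0.37 and -0.46 to 0.65. Atp2a2 ranged from 122 to 192 CPM in WT Sham, 139 to 229 in KO Sham, 172 to 258 in WT MTE and 192 to 302 in KO MTE, and groups overlapped in every comparison. Its overload log2 fold changes of 0.39 in WT (SE 0.21, adjusted p = 0.196) and 0.31 in KO (SE 0.23, adjusted p = 0.313) did not pass.

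Ryr1, the release channel, and Cacna1s, the pore and voltage sensor of the L-type channel, fell with overload in WT by smaller amounts. Ryr1 ranged from 1765 to 2839 CPM in WT Sham and from 966 to 1841 in WT MTE, where WT MTE 1 reached above the lowest Sham library. Its log2 fold change was -0.81 (SE 0.27, adjusted p = 0.0428). Cacna1s ranged from 1078 to 1398 CPM in WT Sham and from 662 to 1090 in WT MTE, again with WT MTE 1 overlapping, and its log2 fold change was -0.52 (SE 0.17, adjusted p = 0.0378). Both were close to the threshold. The Ryr1 call was lost without WT Sham 1, 2 or 3 (adjusted p of 0.0617, 0.0691 and 0.0783) or WT MTE 2, 3 or 4 (0.119, 0.094 and 0.101), and the Cacna1s call without WT Sham 2 or 3 (0.0702 and 0.0839) or WT MTE 2, 3 or 4 (0.114, 0.0889 and 0.0657).

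In KO both channel genes overlapped between surgeries. Ryr1 lay at 1260 to 2170 CPM in KO Sham and 1208 to 2243 in KO MTE (log2 fold change -0.29, 95% interval -0.91 to 0.34). Cacna1s lay at 767 to 1079.9 CPM in KO Sham and 805 to 1016 in KO MTE (-0.07, interval -0.46 to 0.33). The Cacna1s genotype difference within Sham, -0.40 (SE 0.19), had an unadjusted p of 0.0491 and did not pass after adjustment (0.459).

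Pvalb, the soluble buffer of fast fibres, fell by the largest factor among the members in KO overload and stood beside Mrln in WT overload. Its CPM in WT were 2562, 2848, 3275 and 3061 in Sham 1 to 4 and 1156, 1094, 1007 and 565 in MTE 1 to 4. Its CPM in KO were 2965, 2980 and 1910 in Sham columns 1 to 3 and 1274, 976, 709 and 789 in MTE 1 to 4. The surgeries did not overlap in either genotype, while the genotypes overlapped in both surgeries. Overload lowered Pvalb 3.07-fold in WT (log2 fold change -1.62, SE 0.25, adjusted p = 4.41e-04) and 2.79-fold in KO (-1.48, SE 0.26, adjusted p = 0.00181), and both calls held when any 1 library was left out. The genotype differences were -0.17 within Sham (95% interval -0.73 to 0.40) and -0.03 within MTE (-0.55 to 0.49).

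Ratios of related members within a library do not depend on how libraries are scaled. The ratio of Atp2a1 to Atp2a2 CPM was 43.0 to 76.9 in WT Sham, 39.7 to 55.8 in KO Sham, 14.2 to 22.0 in WT MTE and 10.1 to 32.4 in KO MTE. The ratio of Casq1 to Casq2 was 12.9 to 17.9, 6.35 to 7.47, 4.46 to 5.56 and 2.58 to 4.03 in the same order. The calsequestrin ratio thus took 4 ranges that did not overlap, and the pump ratio separated the surgeries but not the genotypes.

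Each ratio was tested on its log2 values with an exact two-sided permutation test, with adjustment over 12 tests of 3 ratios. The pump ratio was 3.33-fold lower after MTE in WT (exact p = 0.0286, the smallest that 4 against 4 libraries can give) and 2.54-fold lower in KO (exact p = 0.0571, the smallest that 3 against 4 can give). The calsequestrin ratio was 2.98-fold lower after MTE in WT (exact p = 0.0286) and 2.19-fold lower in KO (exact p = 0.0571). Between genotypes it was 2.15-fold lower in KO within Sham (exact p = 0.0571) and 1.58-fold lower within MTE (exact p = 0.0286). None of the 12 passed after adjustment, where these 6 had 0.114. Given the smallest exact p-values above, none of the 12 could pass after adjustment, even with full separation in every comparison. The adjusted values therefore cannot decide whether the ratios differed. The ratio of Cacna1s to Ryr1 overlapped in every comparison.

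**Figure D3:**
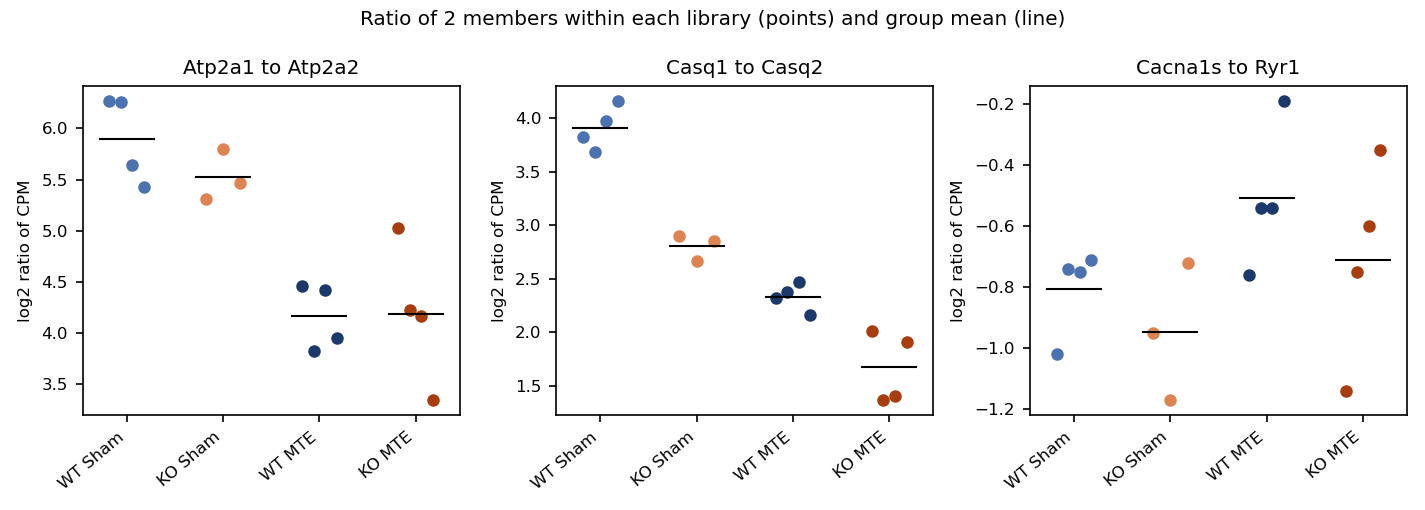
Log2 ratio of the CPM of 2 members within each library, by group; points are libraries and lines group means. The Casq1 to Casq2 ratio takes a separate range in each group, the Atp2a1 to Atp2a2 ratio is lower in MTE, and the Cacna1s to Ryr1 ratios overlap.

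Per kilobase of the GENCODE transcript, the order of the members changed with overload and genotype. In WT Sham the mean CPM per kilobase ran from 3005 for Pvalb and 2786 for Atp2a1 through 776 for Casq1, 198 for Cacna1s and 142 for Ryr1. It went on to 48.3 for Mrln, 37.8 for Casq2, 36.3 for Atp2a2, 12.5 for Sln and 1.67 for Pln. Ranges over libraries overlapped between Pvalb and Atp2a1, between Cacna1s and Ryr1, and between neighbours from Mrln to Sln. In KO MTE Casq2 (165) stood in place 4, Sln (128) in place 6 and Mrln (4.24) in place 9, against places 7, 9 and 6 in WT Sham. The KO MTE ranges of Casq2, Cacna1s, Sln and Ryr1 overlapped between neighbours.

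Some fibre type markers changed in the same comparisons as these members. Of 8 slow fibre markers, edgeR called 2 higher and 0 lower in WT overload and 4 higher and 0 lower in KO overload, and of 9 fast fibre markers 0 higher and 4 lower in WT and 0 higher and 3 lower in KO. Unadjusted p was under 0.05 for 2, 4, 6 and 4 genes of these 4 counts in order, and DESeq2 and limma voom each called 2, 4, 6 and 4. Of all genes, edgeR called 25.3% in WT overload (14.1% higher, 11.2% lower) and 25.9% in KO overload (13.2% higher, 12.7% lower). The slow marker count in WT, 2 of 8 in either direction, was thus near the share of all genes. The slow markers summed to 643 to 1040 CPM in WT Sham, 572 to 1118 in KO Sham, 791 to 1168 in WT MTE and 1354 to 2123 in KO MTE, and none was at 0 in any library. Slow troponins led the calls, with Tnnc1 log2 fold changes of 2.14 in WT and 3.68 in KO overload. Myh7 and Myl3 had lower means in MTE in both genotypes and were not called. Mean Myh7 CPM went from 165 in WT Sham to 95.1 in WT MTE, and from 191 in KO Sham to 99.2 in KO MTE. Myl3 means went from 20.0 to 11.4 in WT and from 24.8 to 13.1 in KO. Tpm3 and Myl2 had higher means in MTE in both genotypes. Tpm3 means went from 94.0 to 119 in WT and from 94.2 to 169 in KO. Myl2 means went from 207 to 222 in WT and from 168 to 205 in KO. Myoz2 means went from 262 to 316 in WT and from 291 to 278 in KO. Within MTE, Tnnt1 (2.80, adjusted p = 0.0053) and Tnnc1 (2.19, adjusted p = 0.0146) were higher in KO. Within Sham, where Casq2 was higher and Mrln lower in KO, edgeR, DESeq2 and limma voom called 0 of the 8 slow markers, and 0 had an unadjusted p under 0.05. As edgeR called 0.511% of all genes there, 0 of 8 is near that share. The fast markers summed to 77306 to 94027 CPM in WT Sham and 57832 to 61324 in KO Sham, which did not overlap, and to 43581 to 60371 in WT MTE and 34741 to 50600 in KO MTE. Of the 9 fast markers, edgeR called 0 between genotypes within Sham, where 3 had an unadjusted p under 0.05 and DESeq2 called 2 and limma voom 0. Within MTE edgeR also called 0, beside 1.47% of all genes. There 5 had an unadjusted p under 0.05, DESeq2 called 3 and limma voom 1. Their log2 fold changes within MTE ran from -1.58 to 1.02, with a median of 0.14. Over both surgeries edgeR called 2 lower in KO, beside 1.01% of all genes: the myosins Myh1 (-1.53, adjusted p = 0.00816) and Mylpf (-0.59, adjusted p = 0.0249). Myh4, the fastest myosin, fell by 1.73 in WT and 1.77 in KO overload on the log2 scale. Myh2 and Mylpf had higher means in MTE in both genotypes and were not called. Mean Myh2 CPM went from 4320 to 5943 in WT and from 3254 to 4700 in KO. Mylpf means went from 5064 to 5603 in WT and from 2976 to 4219 in KO. The part of fibre type in the changes with MTE and between genotypes was not tested.

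Other cell types also moved with surgery. Fibroblast and matrix markers summed to 2573 to 4292 CPM in WT Sham and 12113 to 30706 in WT MTE, and to 1489 to 4300 in KO Sham and 14310 to 19514 in KO MTE. In whole muscle, fewer cells of a type and less RNA per cell cannot be told apart. Casq2, Sln, Pln and Atp2a2 are also genes of the heart; the 5 cardiac markers in the table summed to 2.23 to 6.75 CPM in every library, with Nppa and Nppb at 0 in all KO Sham libraries. Nppb, a natriuretic peptide of the heart, was also at 0 in all WT Sham libraries and reached 0.0474 to 0.261 CPM in WT MTE and 0.386 to 2.35 in KO MTE. Nppa, another such peptide, stood at 0 to 0.0322 CPM in WT Sham, 0.095 to 0.427 in WT MTE and 0.0835 to 0.411 in KO MTE. Both were called higher with overload in both genotypes, while Myh6, a myosin of the heart, was lower in WT (log2 fold change -1.30, adjusted p = 0.0178).

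A scaling to the summed counts of 12 structural genes of all myofibres was used to set the members against fibre RNA. Ttn and Neb, at means of 170270 and 30475 CPM in WT Sham, made up most of the sum, so it mainly follows these 2 genes. Other genes of the list moved apart with TMM, such as Des (1.31) and Cmya5 (-1.24) in KO overload. The scaling moved the median log2 fold change of all genes from 0.04 to 0.67 in WT overload and to 0.65 in KO overload. Under it Casq2 (log2 fold change 1.77, adjusted p = 7.13e-04) and Sln (2.32, adjusted p = 0.0174) were called higher in WT and Casq2 in KO (1.61, adjusted p = 0.0058), and 0 members were called lower in either. Mrln (-1.01), Pvalb (-0.92), Atp2a1 (-0.67) and Ryr1 (-0.19) kept a negative sign in WT, whereas Cacna1s (0.08) and Casq1 (0.20) turned positive. In KO, Mrln (-0.46), Pvalb (-0.91) and Atp2a1 (-0.47) also stayed negative. The errors were wider, with an SE of 0.39 for Pvalb in WT. The falls called with TMM are relative to the muscle's RNA as a whole. A fall relative to the 12 genes was not shown for any member. Nor was it excluded for those called lower with TMM, including Cacna1s (SE 0.30) and Casq1 (SE 0.28), which turned positive in WT. Under this scaling the genotype calls over both surgeries held for Casq2 and Mrln and were lost for Sln (1.86, adjusted p = 0.0772). Within a surgery they were lost for both genes, with values of 1.32 and -2.26 within Sham and 1.16 and -1.71 within MTE. The summed CPM of the 12 genes itself ran from 172640 to 302550 among WT Sham libraries.

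**Figure D4:**
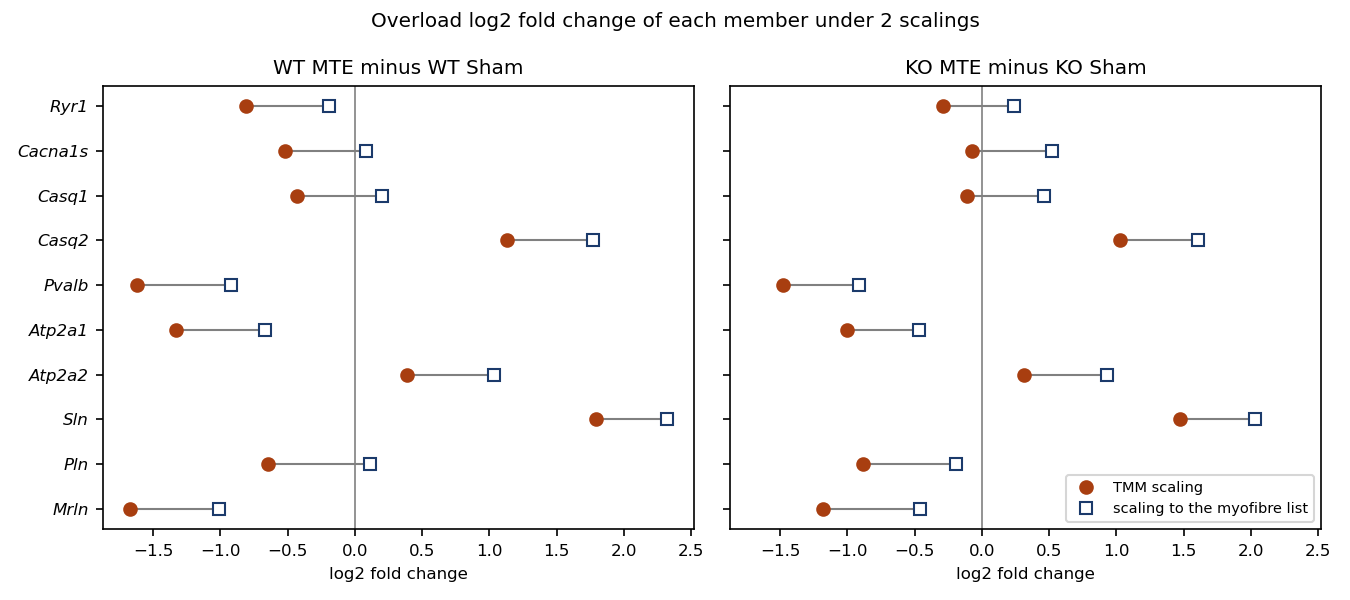
Overload log2 fold change of each member with TMM scaling (circles) and with scaling to 12 myofibre structural genes (squares), in WT and in KO. The second scaling lies to the right of the first for every member, and only Casq2, Sln and Atp2a2 are right of 0 under both scalings in WT.

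Genes that build the junction of tubule and store changed in both directions. Of 25 triad and coupling genes, 3 rose and 10 fell in WT overload (median log2 fold change -0.26), and 7 rose and 6 fell in KO (median 0.06). Of all genes, 14.1% were called higher and 11.2% lower in WT overload, and 13.2% and 12.7% in KO overload. Hrc, a calcium-binding protein of the store, fell in both (-0.86, adjusted p = 2.85e-04 in WT, and -0.62, adjusted p = 0.00508 in KO). Stac3, which links the voltage sensor to the release channel, also fell in both (-0.73 in WT and -0.43 in KO). In WT, Tmem38a (-0.86), a cation channel of the store, fell, while Fkbp1a (0.61), a ryanodine receptor partner, rose. In KO, mean Tmem38a CPM went from 618 in Sham to 454 in MTE, and mean Fkbp1a CPM from 27.5 to 38.2. Jph1, which tethers the store to the tubule, fell in both (-0.95 in WT and -1.06 in KO). Cacna2d1, an L-type channel subunit, did so too (-0.88 in WT and -1.08 in KO). Between genotypes, Cacng6, another channel subunit, was higher in KO within MTE (0.70, adjusted p = 0.0431), and Hrc was higher in KO over both surgeries (0.37, adjusted p = 0.0384).

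Of 13 other transporters, channels and pump peptides in the table, 1 fell in WT overload, and 1 rose and 2 fell in KO overload; 12 and 10 did not pass, beside 25.3% and 25.9% of all genes called. Slc8a3, a sodium-calcium exchanger, fell in both genotypes (-1.22 in WT, adjusted p = 8.45e-04, and -0.94 in KO, adjusted p = 0.00802). In KO overload 1810037I17Rik, which RefSeq lists as another-regulin, a further pump-binding peptide, rose (0.98, adjusted p = 0.0058), and Ryr2, the heart's release channel, fell (-1.41, adjusted p = 0.0335). Slc8a1 was lower in KO over both surgeries (-0.83, adjusted p = 0.0278).

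Store-operated entry, by which an emptied store recruits calcium from outside, had 3 of 11 genes lower in WT overload, where 11.2% of all genes were called lower, among them Stim1 (-0.61), the sensor, and Saraf (-0.55), which inactivates the entry. In KO overload Orai2, a pore subunit, rose (2.24). Of 10 genes of mitochondrial uptake, 3 rose and 3 fell in WT, and 4 rose and 3 fell in KO. The shares of all genes called were 25.3% and 25.9%. Vdac1, the outer membrane channel, fell in both (-1.13 and -1.11), and Mcu, the pore of the uniporter, rose in both (0.45 and 0.79).

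Of 21 genes of calcineurin, NFAT and CaMK signalling, 4 rose and 6 fell in each genotype, beside 25.3% of all genes called in WT overload and 25.9% in KO. Camk4, a calmodulin-dependent kinase, rose by 3.15 in WT (adjusted p = 4.71e-04) and by 2.22 in KO (adjusted p = 0.00873) on the log2 scale. Nfatc4, a transcription factor of the pathway, rose in WT (1.44). Its mean CPM in KO went from 5.06 in Sham to 10.5 in MTE. Ppp3cb, a catalytic subunit of calcineurin, fell in both (-0.99 and -0.83). Myoz1, which binds calcineurin at the Z-disc, also fell in both (-1.21 in WT and -0.65 in KO). Under the myofibre scaling 0 genes of these 5 lists were called lower in either genotype, and of those called lower with TMM, 8 of 10 triad genes and 4 of 6 calcineurin genes kept a negative sign in WT. In KO, 4 of 6 triad genes and 5 of 6 calcineurin genes did. The same scaling called 4 triad genes higher in WT and 9 in KO, with medians of 0.37 and 0.67, and 5 calcineurin genes higher in each.

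**Figure D5:**
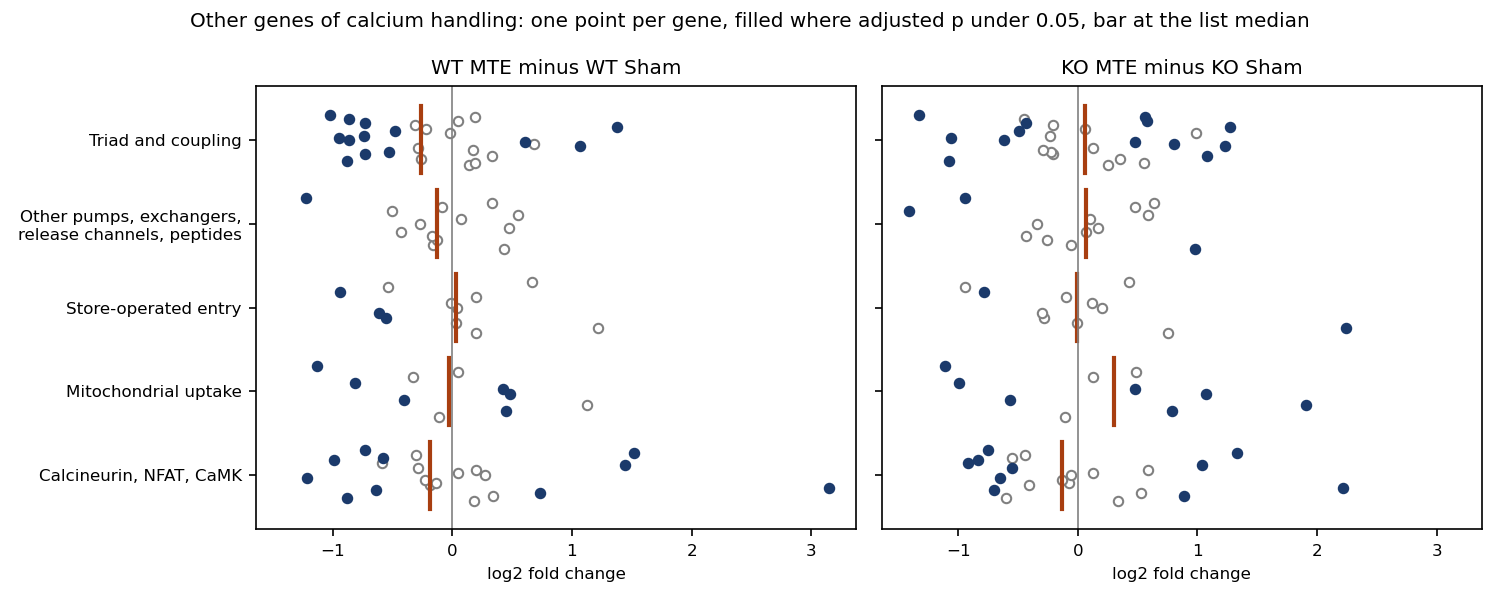
Overload log2 fold change of each gene of 5 further calcium lists (1 point per gene, filled where it passed the test; the bar is the list's median), in WT and in KO. Filled points lie on both sides of 0 in the triad, mitochondrial and calcineurin lists.

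Patterns over the 15 libraries are given as Pearson's r of log2 CPM, as a description, since libraries of a group share their treatment and all values share the library scaling. Among members, Atp2a1 and Pvalb had r = 0.95, Ryr1 and Atp2a1 0.90, Casq2 and Sln 0.90, and Casq2 and Mrln -0.94. After subtraction of group means these were 0.72, 0.95, 0.45 and -0.56, so Ryr1 and Atp2a1 varied together within groups. Among 13821 genes with a mean of at least 1 CPM, the gene most like Atp2a1 was Pygm (0.98), the glycogen phosphorylase of muscle, and the gene most like Pvalb was Bpgm (0.98), a bisphosphoglycerate mutase. Those most like Casq2, Sln and Mrln were Rccd1 (0.97), Tubgcp4 (0.93) and Tspan8 (0.94). Those most like Ryr1, Cacna1s and Casq1 were Acacb (0.96), Sptb (0.95) and Synrg (0.92), and those most like Pln and Atp2a2 were Ccdc146 (0.94) and Pop1 (0.79).

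Exons of Ryr1, Cacna1s, Atp2a1, Atp2a2, Casq1 and Pln overlap the span, introns included, of a gene on the opposite strand in GENCODE M21. Overlap of exon with exon was not examined, and no source used here says if reads were counted by strand. Whether reads from those genes were counted for these members was not tested. Of windows of 50 bases along the transcripts, 4.58% of those of Atp2a2 also occur in Gm30970 and 0.117% of those of Atp2a1 in Atp2a3; the other 8 members had 0%. On GRCm38, Casq2 lies at chr3:102086415-102146514, Casq1 at chr1:172209894-172219868, Sln at chr9:53850164-53854560, Pln at chr10:53337667-53345987 and Mrln at chr10:70204664-70219711. The pumps lie at chr7:126445858-126463108 (Atp2a1) and chr5:122453513-122502225 (Atp2a2), the channels at chr7:29003344-29125179 (Ryr1) and chr1:136052750-136119822 (Cacna1s), and Pvalb at chr15:78191114-78206400.

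In the authors' deposited table, the adjusted p of KO Sham against WT Sham was 0.00669 for Casq2, 6.52e-04 for Mrln and 0.486 for Sln. The authors' deposited table gave an adjusted p of KO MTE against KO Sham of 3.76e-04 for Casq2, 0.0125 for Mrln, 0.0043 for Sln, 5.56e-06 for Pvalb, 0.00757 for Atp2a1 and 0.0357 for Pln. The p for the interaction of genotype and MTE in the authors' deposited table, with no adjustment named in its header, was 0.0265 for Casq1, 0.0612 for Cacna1s and 0.213 to 0.792 for the other 8 members. Its columns for the genotypes within MTE and for overload in WT equalled each other in each of the 17217 genes, so neither was used.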

How the data were processed

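The authors deposited estimated counts per gene, called raw reads per the file headers; 90.9% of the values were whole to within 0.01. The authors' p-values were deposited in a second table, whose column headers name the comparisons. Per the submitters' processing notes, STAR, RSEM and edgeR were used with build GRCm38 (no version or role stated). Of 16 labelled samples, 4 in each group, the tables held 15 libraries. Their 3 KO Sham columns could not be tied to single labelled samples and are called columns 1 to 3. Within groups no pair of libraries was a copy (chi-square per gene at least 36.5).

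Counts were rounded, filtered with filterByExpr, scaled by TMM and fitted as 4 group means over all 15 libraries with edgeR 4.0.16 (robust quasi-likelihood, R 4.3.3), with Benjamini-Hochberg adjustment over 17212 genes and a threshold of 0.05. The standard error (SE) belongs to the log2 fold change, and CPM use TMM-scaled library sizes. The steps were tested on simulated data. Alternatives were DESeq2 1.42.0, limma voom (limma 3.58.1), RLE size factors, scaling to 12 myofibre genes, other filters (none, or at least 1 CPM in at least 8 libraries), a fit of only the groups compared, omission of libraries and a replicate block. Named were all members, the genes with the smallest adjusted p among those called in each list (up to 4 in WT overload and 3 elsewhere), and for likeness the genes of highest r. Promoters are from RefSeq, GRCm38.p6, and transcripts from GENCODE M21. Some genes that the naming rule selects are not reported here. The members and lists were chosen with earlier results of these data known.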

Additional observations from a re-analysis of the deposited data

Results flagged for a closer look

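In 30 groups of 4 libraries, 1 for each member and 4-library group, the highest or lowest library was compared with the rest, and 4 groups had a library far from the others. Chance flags about 1 in 20 groups. Sln stood at 43.3 CPM in WT Sham 1, while WT Sham 2 to 4 stood at 4.82 to 9.57; this is the library with 3349 CPM of macrophage markers, whose part in the value was not tested. Ryr1 stood at 2243 CPM in KO MTE 1, against 1208 to 1351 in the other KO MTE libraries. Atp2a2 stood at 302 CPM in KO MTE 4, against 192 to 201 in the others. Casq1 stood at 1148 CPM in WT MTE 4, against 1020 to 1041 in the others.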

How the results depend on the processing

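The count of members called stayed within 1.5 times that of the edgeR fit under DESeq2, limma voom, RLE size factors, both other filters, omission of WT Sham 1 and KO Sham column 3 together, and the replicate block. Scaling to myofibre genes left 2 of 8 calls in WT overload, 1 of 4 in KO overload, and 0 of 2 in the genotype comparison in Sham and in MTE. A fit of only the groups compared left 0 of 2 in Sham. Leaving out each library in turn gave 4 to 8 members in WT overload, 2 to 4 in KO overload, 0 to 3 for genotype in Sham, 0 to 2 in MTE, 2 to 3 over both surgeries and 0 to 0 for the difference of responses. Those fits have fewer samples; for the rest the cause was not tested.

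Signs turned, on the log2 scale, under myofibre scaling for Cacna1s (0.08), Casq1 (0.20) and Pln (0.11) in WT overload, and for Ryr1 (0.24), Cacna1s (0.52) and Casq1 (0.46) in KO overload. It also turned Pln (0.02) and Pvalb (0.02) in the Sham genotype comparison, Pvalb (0.03) in MTE, and Atp2a1 (0.05) and Pvalb (0.02) over both surgeries. Limma voom turned Ryr1 over both surgeries (-0.01), and a fit of only the groups turned Pvalb in MTE (0.02). Without WT Sham 1 and KO Sham column 3, Ryr1 (0.10) and Atp2a1 (0.05) turned in Sham, and Atp2a1 (0.08) over both surgeries. Leaving out 1 library also spanned 0 for genotype in MTE in Atp2a1 (-0.17 to 0.29), Atp2a2 (-0.12 to 0.17), Cacna1s (-0.05 to 0.19), Pvalb (-0.21 to 0.08) and the Atp2a1 to Atp2a2 ratio (-0.26 to 0.30). It did so in Sham for Atp2a2 (-0.08 to 0.29), Pln (-0.47 to 0.05) and Pvalb (-0.27 to 0.02), in KO overload for Cacna1s (-0.19 to 0.05), and over both surgeries for Atp2a1 (-0.20 to 0.03), Atp2a2 (-0.01 to 0.18) and Ryr1 (-0.12 to 0.13). Apart from Cacna1s and Casq1 in WT overload under myofibre scaling, none of these had passed the test.

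Of 12 pairs of libraries with the same number in different groups, 8 had a correlation of deviations over 0.1 (-0.16 to 0.54), so pairing by number was not shown for all of them. Pairs with different numbers ran from -0.58 (WT MTE 1 and KO MTE 3) to 0.43 (WT MTE 4 and KO MTE 3), and most were not over 0.1. Whether libraries of a number share an animal or batch was not tested, and the main fit had no term for it. With the replicate block, 8 members were called in WT overload and 2 for genotype in MTE, beside 5486 and 364 of all genes against 4355 and 253 without it. No block could be fitted with KO Sham, whose columns carry no matched number. Counts over all genes differed most in the Sham genotype comparison, at 88 with edgeR, 278 with DESeq2, 11 with myofibre scaling and 6 with only the groups. In MTE they were 253, 654, 48 and 575, over both surgeries 580, 1202 and 154 in the first 3, and for the difference of responses 0 with edgeR (605 at an unadjusted p under 0.05), 10 with DESeq2 and 0 with limma voom; in KO overload myofibre scaling gave 2513 against 4454. Leaving out 1 library gave 3019 to 6695 genes in WT overload, 2231 to 5126 in KO overload, 39 to 98 for genotype in Sham, 92 to 269 in MTE and 369 to 707 over both surgeries. Without WT Sham 1 and KO Sham column 3 these counts were 7656, 4081, 236, 833 and 1098.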
